A study of Mus musculus with 12 samples.

Results

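The Ms4a genes of mouse macrophages were followed across genotype and IL-4 treatment. The 8 genes are Ms4a4a, Ms4a4b, Ms4a4c, Ms4a6b, Ms4a6c, Ms4a6d, Ms4a7 and Ms4a8a, listed by name from the Ms4a genes described in macrophages and related leukocytes, and 7 of them have an entry among the 38887 genes of the files. Ms4a4a was not analysed here. RNA was sequenced from bone marrow-derived macrophages (BMMs) of mice aged 3 to 4 months, which had been differentiated for 6 days with 50 ng/ml M-CSF. The 12 libraries form 4 groups of 3: WT and IGF2BP2 KO BMMs, each left untreated (M0) or treated for 8 h with 20 ng/ml IL-4 (M2). In the KO mice, loxP sites flank exons 4 and 5 of Igf2bp2 and Cre is inserted at the Lyz2 locus, which is active in macrophages, monocytes and neutrophils, whereas the WT littermates carried no floxed allele and were a mix of animals with and without Cre. The labels do not say which of the WT mice sequenced here carried Cre, whereas all KO mice did. The Lyz2 transcript was also lower in KO, as given below. Effects of Cre, of the lower Lyz2 level and of Igf2bp2 cannot be told apart. The comparisons address whether loss of IGF2BP2, an RNA-binding protein, changes the transcripts of resting macrophages and of macrophages polarized with IL-4.

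Ms4a genes encode small membrane proteins that cross the membrane repeatedly with both ends in the cytosol, and many associate with signalling receptors. The best known relatives are Ms4a1, which encodes the B cell antigen CD20, and Ms4a2, which encodes the beta chain of the high-affinity IgE receptor of mast cells and basophils. Ms4a4a and Ms4a7 are markers of tissue macrophages, and MS4A4A associates with the beta-glucan receptor Dectin-1 (gene Clec7a). MS4A6D has been described with VSIG4 in the restraint of inflammatory macrophages, MS4A4B and MS4A6B with the receptor GITR (gene Tnfrsf18) on T cells, and Ms4a8a with alternatively activated macrophages. The human MS4A cluster is also known for its genetic association with the level of soluble TREM2.

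The genes share a cluster on chromosome 19 (GRCm38 assembly, GENCODE M21 annotation) that runs from Ms4a10 to Ms4a3 and holds other genes between them. Ms4a8a is at chr19:11067471-11081102 and Ms4a7 at chr19:11321039-11336146, both on the minus strand. Ms4a4a (chr19:11375523-11392790), Ms4a4c (chr19:11404770-11427246), Ms4a4b (chr19:11443553-11467055), Ms4a6c (chr19:11469366-11482192) and Ms4a6b (chr19:11516512-11531256) follow on the plus strand. Ms4a6d (chr19:11586604-11604849) is on the minus strand again.

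The genes of the Ms4a6 group resemble each other in sequence. Over an alignment of their coding sequences, Ms4a6b and Ms4a6d share 80.6% of the bases, Ms4a6b and Ms4a6c 76.0%, and Ms4a6c and Ms4a6d 69.7%. Ms4a4b and Ms4a4c are closer still at 91.8%, while every pair of a Ms4a6 gene with Ms4a7 is between 53.5% and 56.1%. Bases 31 to 60 of the coding sequence, counted from the start codon (GENCODE M21 transcripts), are printed as an example. Among successive stretches of this length, it is the first in which all members of a group differ. It was thus chosen for its differences and does not show how well reads tell the genes apart. Capitals mark the bases that differ from Ms4a6c in the first group and from Ms4a4c in the second.
Ms4a6c: atcacaacgatttcaccaaatggaatcaac
Ms4a6b: GtGGcaaTgatttcGccaaatggaatGaGT
Ms4a6d: GtcacaGTgatttcaccaaatggaatcaGc
Ms4a4c: gtggttcctggaggtgctccaccttcagag
Ms4a4b: gtggttcctggagTtgctGTGccttcaAag
In this stretch Ms4a6b differs from Ms4a6c at 8 bases, Ms4a6d from Ms4a6c at 4, and Ms4a4b from Ms4a4c at 5. Of all 75-base windows of their transcripts, the length of a read here, 2.88% in Ms4a6c, 0.63% in Ms4a6b and 0.41% in Ms4a6d also occur in another gene. The share is 3.78% in Ms4a4c and 1.18% in Ms4a4b, and it is 0 in Ms4a7 and Ms4a8a. The uncertainty that the authors' quantification gives for dividing reads between genes was at most 3.84 reads for any of the 7 genes in any library, which is at most 1.09% of the count of Ms4a6b but up to 44% of the few reads of Ms4a4b.

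**Figure D1:**
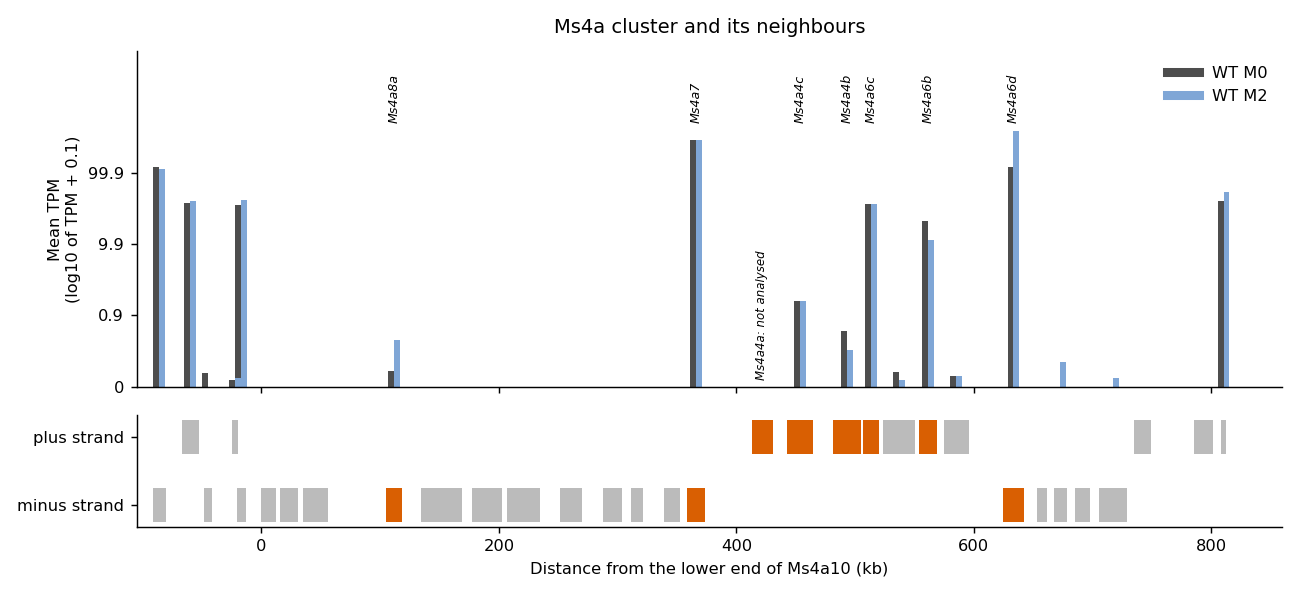
Mean TPM (transcript level per length, log10 of TPM + 0.1) of the genes of the Ms4a cluster and its neighbours in WT M0 and WT M2 (n = 3 libraries each), against the distance in kb from the lower end of Ms4a10; the lower panel shows each gene by strand, with the 8 Ms4a genes of macrophages in orange. High bars within the cluster belong to Ms4a7 and the 3 Ms4a6 genes, and most of the cluster is near 0.

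The libraries held between 20011792 (WT M2) and 39632770 (KO M2) expected counts. Counts were scaled to the library total as CPM, with TMM factors of edgeR, for comparisons between groups, and TPM, which takes the transcript length into account, was used between genes. Calls were made at a threshold of 0.05 on the adjusted p of the edgeR quasi-likelihood test, over 12846 genes. Igf2bp2 had a mean of 98.0 CPM in WT M0 and 90.8 CPM in KO M0 (log2 fold change -0.11, edgeR adjusted p = 0.656) and of 211 and 135 CPM in M2 (-0.65, edgeR adjusted p = 0.0285, lost without WT M2 library 1 or 2 or KO M2 library 2 or 3, with up to 0.127), so that in M0 the transcript count of the deleted gene did not separate the libraries labelled KO from WT. This count covers the whole gene, whereas only exons 4 and 5 are floxed, and the exons were not analysed singly here. The authors reported both protein (Western blot) and mRNA (qPCR) of Igf2bp2 as nearly undetectable in KO BMMs. Lyz2, the locus that carries Cre, separated KO from WT in both treatments, with log2 fold changes of -8.30 and -8.57. All 5 IL-4 genes looked at (Retnla, Chil3, Mrc1, Cish and Socs1) were called higher after IL-4 in both genotypes, and all 9 macrophage markers, among them Csf1r and Adgre1, were expressed. Summed levels of 4 monocyte markers (Ly6c2, Ccr2, Vcan and Plac8) were 21.2 to 38.6 CPM in WT M0 and 38.1 to 41.4 CPM in KO M0, and 31.1 to 42.3 and 43.1 to 48.8 CPM in M2. Those of 7 neutrophil markers, of which Ly6g was at 0 in every library, were 6.66 to 16.4 CPM in WT M0 and 4.59 to 4.80 CPM in KO M0, and 3.37 to 9.22 and 3.66 to 4.55 CPM in M2.

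Of the 7 genes, Ms4a7 and Ms4a6d were expressed at a high level, Ms4a6c and Ms4a6b at a moderate one, and Ms4a4c, Ms4a4b and Ms4a8a close to the limit of detection. In WT M0 the mean level was 288 TPM for Ms4a7 (SD 60.1, n = 3), 119 TPM for Ms4a6d (SD 2.79), 35.8 TPM for Ms4a6c (SD 0.365) and 20.8 TPM for Ms4a6b (SD 3.44). Ms4a4c followed with 1.49 TPM (SD 0.107), Ms4a4b with 0.50 TPM (SD 0.209) and Ms4a8a with 0.067 TPM (SD 0.115). The ranges of neighbours in this order did not overlap in WT M0. After IL-4 the order changed at the top, where Ms4a6d passed Ms4a7 with 388 TPM against 286 TPM in WT M2 and 435 TPM against 293 TPM in KO M2. At the bottom, Ms4a8a and Ms4a4b were not separated in KO M0, WT M2 or KO M2, since their ranges overlapped. With the posterior mean TPM, the other estimate in the files, the mean of Ms4a4b was 1.21 TPM (WT) and 0.893 TPM (KO) for M0 and 1.05 TPM (WT) and 0.88 TPM (KO) for M2. That of Ms4a8a was 0.127 TPM (WT) and 0.23 TPM (KO) for M0 and 0.413 TPM (WT) and 0.553 TPM (KO) for M2. On that estimate Ms4a4b was above Ms4a8a in every group, and their ranges overlapped in KO M2 alone.

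Together the 7 genes came to 466 TPM in WT M0 (SD 58.6), 474 TPM in KO M0 (SD 37.7), 723 TPM in WT M2 (SD 90.3) and 803 TPM in KO M2 (SD 36.6). Ms4a7 made up 61.4% of this sum in WT M0 and 55.9% in KO M0, but 39.0% and 36.4% in M2. The share of Ms4a6d moved from 25.8% and 29.0% in M0 to 54.1% and 54.2% in M2. Within the Ms4a6 group, Ms4a6d rose from 67.8% to 89.1% of the summed TPM in WT, and Ms4a6b fell from 11.8% to 2.57%; these shares are a description and were not tested.

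**Figure D2:**
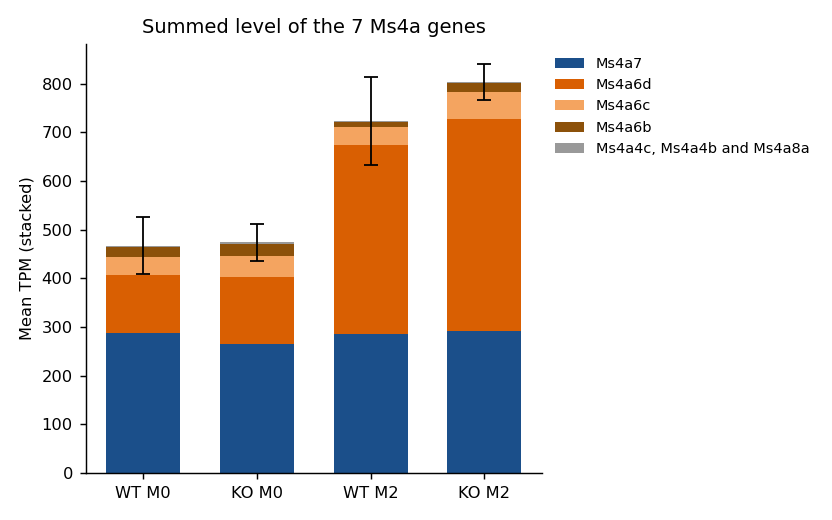
Mean TPM of the Ms4a genes stacked for each group (n = 3 libraries), with the black bar giving the SD of the sum of the 7 genes. The sum lies at 466 and 474 TPM in M0 and at 723 and 803 TPM in M2, and the part of Ms4a6d grows from 119 to 388 TPM in WT and from 137 to 435 TPM in KO, while that of Ms4a7 lies between 265 and 293 TPM.

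Ms4a7, the member most widely used as a macrophage marker, ranked 544 among all genes by mean TPM. Its values were 190, 153 and 127 CPM in WT M0, 159, 129 and 149 CPM in KO M0, 207, 159 and 118 CPM in WT M2 and 185, 144 and 169 CPM in KO M2. All 4 groups overlapped, and the libraries of 1 number lay close together in M0 and M2, with ratios of M2 over M0 of 1.09, 1.04 and 0.935 in WT and 1.16, 1.11 and 1.13 in KO. Ms4a7 was called in none of the comparisons (log2 fold change -0.10 between KO and WT in M0, 0.04 in M2, 0.05 for IL-4 in WT and 0.19 for IL-4 in KO, with edgeR adjusted p = 0.778, 0.937, 0.852 and 0.421). With the library number as a block, which compares M0 and M2 of the same number, the small IL-4 difference in KO was called at a log2 fold change of 0.18 (edgeR adjusted p = 0.00663). With the same block, the response of Ms4a7 in KO exceeded that in WT by 0.15 (edgeR adjusted p = 0.194).

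Ms4a6d rose the most after IL-4 among the 4 Ms4a genes with a mean above 5 CPM. Its values were 88.1, 85.3 and 90.8 CPM in WT M0 and 301, 305 and 287 CPM in WT M2. In KO they were 101, 99.7 and 103 CPM in M0 and 350, 325 and 343 CPM in M2. Every M2 library was above every M0 library. IL-4 raised Ms4a6d 3.38-fold in WT (log2 1.76, SE 0.046, edgeR adjusted p = 1.63e-11) and 3.36-fold in KO (log2 1.75, SE 0.046, edgeR adjusted p = 1.48e-11). By library number the ratio was 3.41, 3.58 and 3.16 in WT and 3.46, 3.26 and 3.35 in KO, and the log2 difference between the responses was -0.01 (SE 0.063, edgeR adjusted p = 0.956).

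Ms4a6b, its closest relative by coding sequence, moved the other way. It was at 14.5, 15.4 and 18.4 CPM in WT M0 and at 9.04, 8.56 and 8.89 CPM in WT M2, and in KO it was at 24.6, 19.5 and 20.3 CPM in M0 and at 15.6, 12.2 and 13.3 CPM in M2. In both genotypes every M2 library lay under every M0 library. Ms4a6b fell by 0.86 on the log2 scale in WT (SE 0.13, edgeR adjusted p = 8.78e-05) and by 0.65 in KO (SE 0.11, edgeR adjusted p = 0.000357), and the difference between the responses was 0.21 (SE 0.17, edgeR adjusted p = 0.559). The mean length of the Ms4a6b transcripts in the files varied between 1233 and 1746 nucleotides over the libraries, which changes its TPM but not its CPM.

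Ms4a6c, which lies on the same strand as Ms4a6b with only Gm8369 between them, did neither in WT. Its values were 33.6, 34.8 and 36.6 CPM in WT M0 and 39.4, 35.9 and 35.3 CPM in WT M2, which overlap, and the log2 fold change of 0.08 was not called (SE 0.072, edgeR adjusted p = 0.401). In KO the values were 41.8, 39.9 and 45.5 CPM in M0 and 53.2, 57.4 and 61.7 CPM in M2, which do not overlap, and Ms4a6c rose by 0.44 on the log2 scale (SE 0.069, edgeR adjusted p = 0.000143). The ratio of M2 over M0 by library number was 1.17, 1.03 and 0.964 in WT and 1.27, 1.44 and 1.36 in KO. The difference between the responses, 0.36 on the log2 scale (SE 0.099), was not called by edgeR (adjusted p = 0.0712), whereas it was called with the library number as a block (0.36, edgeR adjusted p = 0.0325), with DESeq2 (adjusted p = 0.0308) and without KO M2 library 1 (0.41, edgeR adjusted p = 0.0431). Over the other libraries left out in turn the edgeR adjusted p was up to 0.167.

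**Figure D3:**
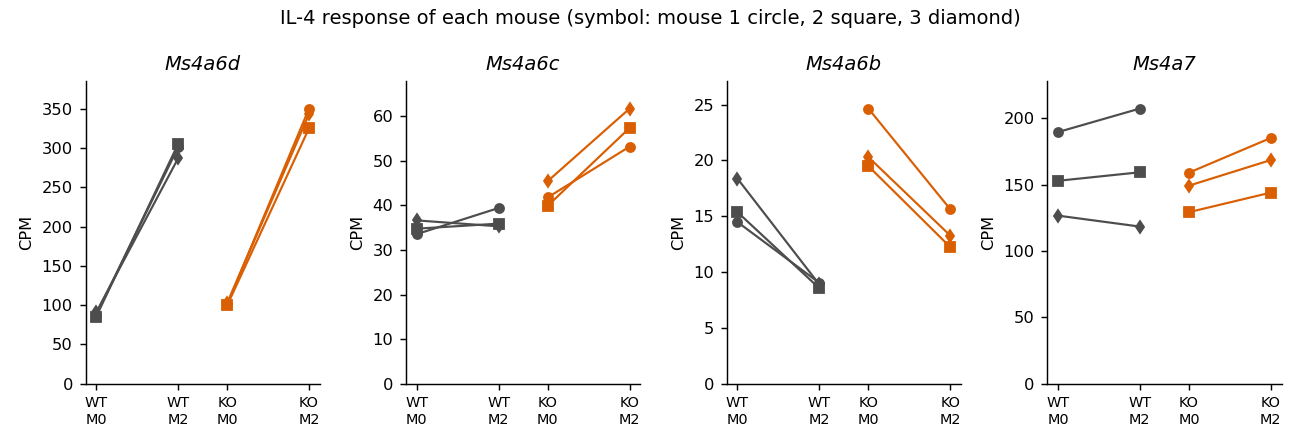
CPM of Ms4a6d, Ms4a6c, Ms4a6b and Ms4a7 in M0 and M2, with a line joining the libraries of the same number in WT (grey) and KO (orange). Lines rise in all 6 pairs for Ms4a6d, fall in all 6 for Ms4a6b, and for Ms4a6c rise in the 3 KO pairs, with ratios of 1.27 to 1.44, and run from 0.964 to 1.17 in WT.

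Counted over the family, IL-4 changed 2 of the 6 genes that passed the filter on low counts in WT (1 higher, 1 lower) and 4 of 6 in KO (2 higher, 2 lower), beside 50.0% (24.9% higher, 25.1% lower) and 52.8% (26.8% higher, 26.0% lower) of all genes tested. The M0 and M2 groups did not overlap for 2 of the 6 in WT and 4 of the 6 in KO, beside 55.2% and 63.4% of all genes. With the library number as a block, edgeR called 3 of the 6 in WT and 6 of the 6 in KO, beside 54.6% and 58.2% of all genes, and both counts include Ms4a8a, which passed the filter through M2 libraries. The median log2 fold change of the 6 genes was 0.06 in WT and 0.31 in KO, or 0.05 and 0.19 over the 5 genes without Ms4a8a, and that of all genes -0.0076 and 0.014. For the difference between the responses the edgeR test called 0 of the 6 (3.24% of all genes), with 1, Ms4a6c, at an unadjusted p under 0.05 and 1 called by DESeq2. With the library number as a block the count over all genes was 1003 (7.81%) instead of 416, and 1 of the 6, Ms4a6c, was called. The IL-4 and the genotype comparisons share libraries and are not independent of each other.

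**Figure D4:**
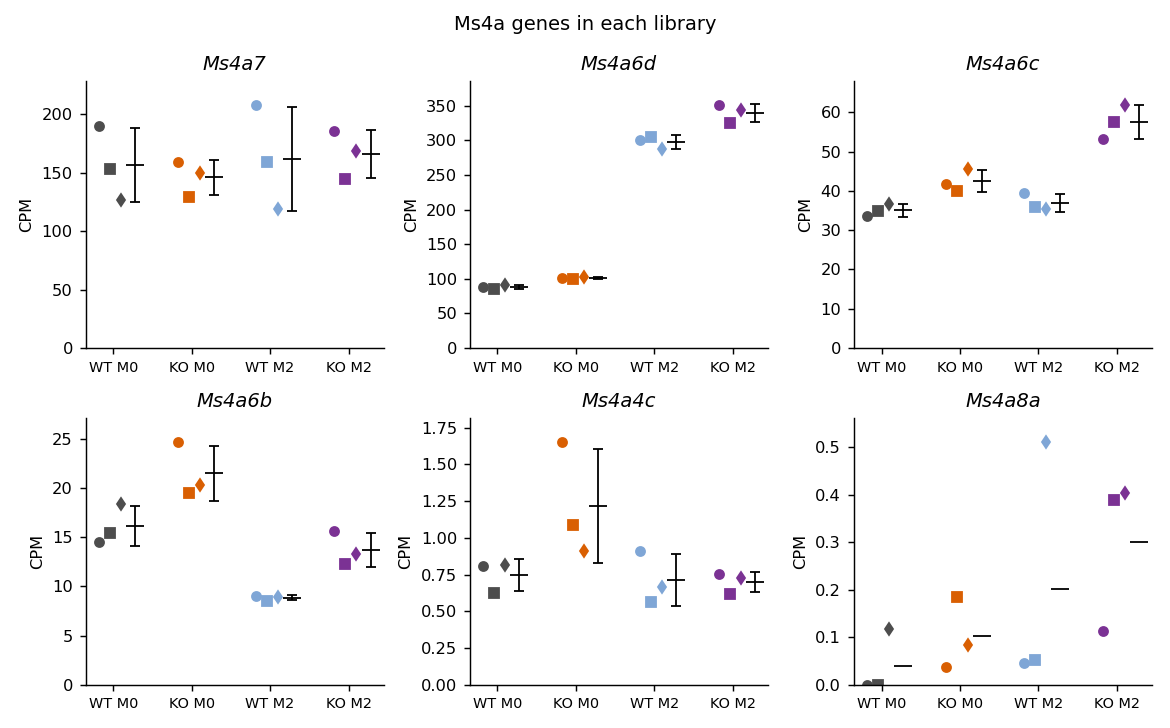
CPM of 6 Ms4a genes in each library, with symbols for the library number (1 circle, 2 square, 3 diamond) and a black mark for the mean of the group with its SD (no SD is drawn for Ms4a8a). Ms4a6d separates M0 from M2, Ms4a6b, Ms4a6c and Ms4a6d are higher in KO than in WT in both treatments, and the groups of Ms4a7 overlap.

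In the comparison of KO with WT, all 3 Ms4a6 genes were higher in KO, in M0 and in M2, and their groups did not overlap in either treatment. In M0 the log2 fold change was 0.20 for Ms4a6d (SE 0.045, edgeR adjusted p = 0.0169), 0.28 for Ms4a6c (SE 0.070, edgeR adjusted p = 0.0275) and 0.42 for Ms4a6b (SE 0.11, edgeR adjusted p = 0.0372). In M2 it was 0.19 for Ms4a6d (SE 0.044, edgeR adjusted p = 0.0431), 0.64 for Ms4a6c (SE 0.071, edgeR adjusted p = 0.0015) and 0.63 for Ms4a6b (SE 0.13, edgeR adjusted p = 0.0262). The differences are thus 1.14-fold to 1.15-fold for Ms4a6d and reach 1.56-fold for Ms4a6c and 1.55-fold for Ms4a6b. In each treatment 3 of the 6 genes tested were called, all higher, beside 9.78% of all genes (5.5% higher) in M0 and 2.68% (1.21% higher) in M2. The groups did not overlap for 4 of 6 in M0 and 3 of 6 in M2, beside 31.1% and 24.8% of all genes. The median log2 fold change of the 6 genes was 0.35 in M0 and 0.41 in M2, with -0.00066 and -0.00093 for all genes. Over the 5 genes without Ms4a8a, which passed the filter through M2 libraries and has few counts, it was 0.28 in M0 and 0.19 in M2.

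These calls differed in whether they held when 1 library was left out. In M2, this also lowered the count of calls over all genes, from 344 to between 25 and 298. Ms4a6c in M2 was called whichever of the 6 libraries was left out, with an edgeR adjusted p of at most 0.0166 and log2 fold changes of 0.58 to 0.69. In contrast, the M2 calls of Ms4a6d and Ms4a6b were lost whichever library was left out (edgeR adjusted p from 0.0678 to 0.147 and from 0.0525 to 0.115), while the log2 fold changes stayed between 0.17 and 0.22 and between 0.53 and 0.71. In M0, Ms4a6d lost its call without WT library 2 (edgeR adjusted p = 0.0745) or KO library 3 (0.0702). Ms4a6c in M0 lost it without WT library 1 (edgeR adjusted p = 0.0746) or 2 (0.0949) and without KO library 1 (0.0645) or 3 (0.118). Ms4a6b in M0 kept its call only without WT library 3 (edgeR adjusted p = 0.0138), and over the 5 others the adjusted p was 0.0554 to 0.130. On TPM the WT and KO ranges of Ms4a6b in M0 overlapped (17.8 to 24.6 and 21.7 to 30.5 TPM), and limma on log2(TPM + 1) gave 0.25 (adjusted p = 0.39). The summed monocyte markers given above also had higher means in KO than in WT, with overlap in M0 and without it in M2. The summed neutrophil markers had lower means in KO, without overlap in M0 and with overlap in M2. The part of either list in these differences was not tested. In a bulk sample, a change in the share of a cell type and a change in RNA per cell cannot be told apart.

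**Figure D5:**
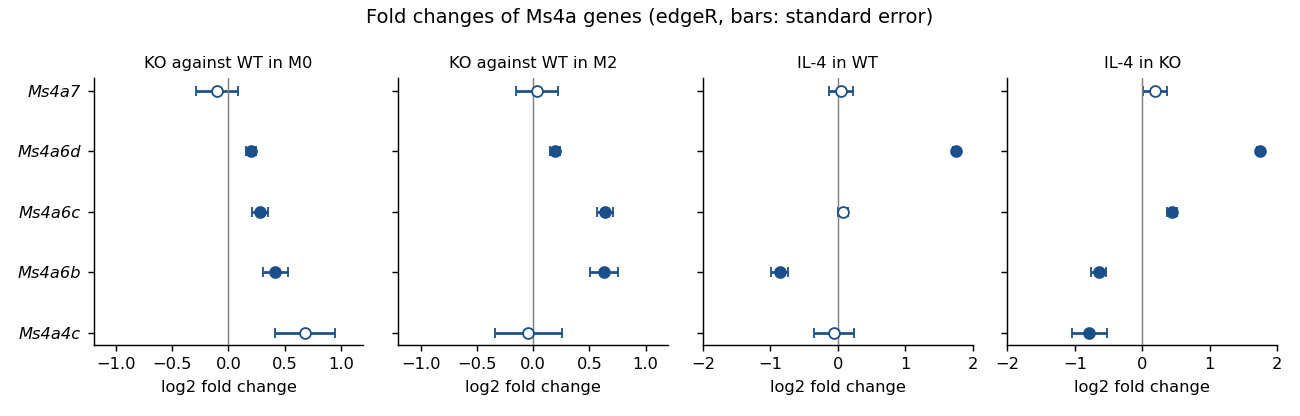
Log2 fold changes of 5 Ms4a genes with their standard errors (edgeR) for KO against WT and for IL-4 against untreated, where filled points are called at an adjusted p under 0.05. The Ms4a6 genes lie to the right of 0 in both genotype panels, and in the IL-4 panels Ms4a6d lies at 1.76 and 1.75 and Ms4a6b at -0.86 and -0.65.

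Ms4a4c, a gene associated with monocytes, was read at 11 to 45 counts per library. It was at 0.809, 0.624 and 0.818 CPM in WT M0, 1.65, 1.09 and 0.913 CPM in KO M0, 0.909, 0.567 and 0.665 CPM in WT M2 and 0.753, 0.621 and 0.727 CPM in KO M2. The KO M0 libraries were above the others, and KO library 1 was the highest of them. The difference between KO and WT in M0 was 0.68 on the log2 scale and was not called (SE 0.27, edgeR adjusted p = 0.133). The fall after IL-4 in KO was called at -0.78 (SE 0.27, edgeR adjusted p = 0.0246), but was lost without KO M0 library 1 (-0.52, edgeR adjusted p = 0.133) and without KO M2 library 2 (0.0882) or 3 (0.0556). It was lost as well when the reads of the Ms4a4 genes were summed (-0.62, edgeR adjusted p = 0.0551). In WT the IL-4 value was -0.06 (edgeR adjusted p = 0.888), and the difference between the responses of -0.72 was not called (SE 0.40, edgeR adjusted p = 0.374).

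Ms4a4b, which is best known from T cells, did not pass the filter on low counts. It was read at 3.14, 11.9 and 7.80 counts in WT M0, 5.00, 5.37 and 6.47 in KO M0, 3.10, 1.00 and 2.17 in WT M2 and 0, 10.7 and 10.7 in KO M2. Scaled to CPM, all 4 groups overlap. The library at 0 allows up to 3 counts, or 0.113 CPM. Of 7 T cell markers, 5 (Cd3e, Cd3d, Cd3g, Cd8a and Trac) were at 0 in every library, while Cd4 and Lck passed the filter. The sum of the 7 was 0.857 to 1.29 CPM over the M0 libraries and 0.388 to 0.825 CPM over the M2 libraries.

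Ms4a8a was read at 0, 0 and 3 counts in WT M0, 1, 7 and 3 in KO M0, 1, 1 and 10 in WT M2 and 3, 15 and 15 in KO M2. Counts were higher in M2 in all 6 pairs of the same number, 2 of which went from 0 to 1 count, within what a count of 0 allows, and the M0 and M2 groups overlapped in both genotypes. The 2 libraries at 0 allow up to 3 counts each, or 0.0970 and 0.0985 CPM. Without a block the IL-4 difference was called in neither genotype (edgeR adjusted p = 0.141 in WT and 0.153 in KO), and with the library number as a block it was called in both (edgeR adjusted p = 0.0312 and 0.0223). As the 3 libraries with 10 or more counts are all M2 libraries, the gene passed the filter through the group where it is high, and these calls are no free test. The log2 value in WT rested on M2 library 3, as it went from 2.37 (SE 1.27) to 0.43 (SE 1.58, edgeR adjusted p = 0.85) without it. Without M0 library 3 no read of Ms4a8a is left in WT M0, and no value is given. In KO the log2 value was 1.51 (SE 0.84). These limits cover counting error only.

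Sequence around the gene starts was compared with the IL-4 response, as STAT6, the factor that IL-4 activates, binds pairs of TTC and GAA separated by 4 bases. The RefSeq promoter table (GRCm38.p6, 250 bases before to 50 bases after a start) holds 8 windows for 7 of the 8 genes and none for Ms4a6d. TTC and GAA with any 4 bases between them, searched on both strands, were in 2 of the 8 windows and in 6.95% of the 32851 windows of all genes. Both windows are shown, as they hold the only matches, with the motif in capitals.
Ms4a7: tcacgagtacTTCCGGGGAAagcacacaaa
Ms4a6b: cagttacaagTTCACAAGAAggaaccaagg
In Ms4a7 (chr19:11336140-11336169, minus strand) the match is 13 to 4 bases upstream of the RefSeq start, and in Ms4a6b (chr19:11518557-11518586, plus strand) 8 to 17 bases downstream. For Ms4a6b this RefSeq start lies inside the GENCODE gene span given above. Which start is used in these cells was not analysed. After IL-4, Ms4a6b fell in both genotypes, and Ms4a7 was not called in WT but was called higher in KO with the library number as a block, as described above. TTCNNNGAA (8.3% of all windows), the core of the interferon response element, which is GAAA repeated after any 2 bases (3.44%), and GAGGAAG, a core of PU.1 sites (13.63%), were in 0 of the 8 windows. A match in a window is a description of these letters and no evidence of binding.

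Among the relatives outside the macrophage group, 13 of 16 have an entry and 11 of these were almost silent. Ms4a1 had at most 2 counts in a library, Ms4a2 at most 2, Ms4a3, a gene of granulocyte and monocyte progenitors, at most 4, and Ms4a4d at most 2. The 2 that passed the filter, Tmem176a and Tmem176b, are distant members that encode intracellular channel proteins and lie outside the cluster. They went the other way from the Ms4a6 genes in KO M0, with log2 fold changes of -0.83 (edgeR adjusted p = 0.0349) and -0.86 (edgeR adjusted p = 0.0157). Tmem176a had a mean of 4.58 CPM in WT M0 and 2.59 CPM in KO M0, and Tmem176b had 17.0 and 9.46 CPM. The call of Tmem176a was lost without any of the 6 libraries except WT library 3 (edgeR adjusted p up to 0.130), and that of Tmem176b without WT library 2, KO library 2 or KO library 3 (up to 0.0725). In M2, edgeR called neither (-0.56, adjusted p = 0.194, and -0.81, adjusted p = 0.0526), with both at an unadjusted p under 0.05, and DESeq2 called 1. Without KO M2 library 1, edgeR called Tmem176b (adjusted p = 0.0292). After IL-4, Tmem176b was not called without a block (edgeR adjusted p = 0.182 in WT and 0.27 in KO), and with the library number as a block it was lower in WT (-0.32, edgeR adjusted p = 0.00328) and in KO (-0.28, edgeR adjusted p = 0.00929).

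Of 8 genes whose products are known to associate with MS4A proteins or with their locus, 6 passed the filter. Clec7a, the gene of Dectin-1, rose from 23.8 to 681 CPM in WT and from 28.7 to 658 CPM in KO (log2 4.84 and 4.52, edgeR adjusted p = 5.95e-12 and 7.69e-12). Card9, an adaptor downstream of Dectin-1, rose by 0.20 in WT (edgeR adjusted p = 0.0325, lost without WT M0 library 1 or 2 or WT M2 library 1 or 3, with up to 0.113) and by 0.30 in KO (edgeR adjusted p = 0.00292). Syk, a kinase downstream of Dectin-1, the lipid receptor gene Trem2, its adaptor Tyrobp and Kit were not called by edgeR for IL-4 in either genotype. Syk in KO was, however, called lower by DESeq2 (-0.19, adjusted p = 0.0367), by limma on log2(TPM + 1) (-0.27, adjusted p = 0.038) and by edgeR with the library number as a block (-0.19, adjusted p = 0.000746). The block also called Trem2 in KO at 0.12 (edgeR adjusted p = 0.0423). In WT, limma called Tyrobp at -0.16 (adjusted p = 0.0229) and did not call Card9 (0.12, adjusted p = 0.175). The mean level of Trem2 stayed between 439 and 480 CPM in the 4 groups. Between KO and WT, edgeR called 0 of the 6 in either treatment, beside 9.78% of all genes in M0 and 2.68% in M2. Clec7a and Kit in M0 and Card9 in M2 had an unadjusted p under 0.05, and DESeq2 called 0. Without WT M0 library 1, edgeR called Clec7a in M0 (adjusted p = 0.0426). Vsig4 was at 0 in all 12 libraries, and Tnfrsf18 had at most 6 counts.

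The neighbours of the cluster that were expressed, Tmem109, Prpf19, Ccdc86 and Mrpl16, changed less than Ms4a6d after IL-4. Prpf19, Ccdc86 and Mrpl16 then rose by 0.17, 0.28 and 0.45 on the log2 scale in WT (edgeR adjusted p = 0.00678, 0.00168 and 1.93e-05) and by 0.20, 0.61 and 0.60 in KO (edgeR adjusted p = 0.00192, 1.97e-06 and 9.38e-07). Both calls of Prpf19 held whichever library was left out, but not under every other alternative listed below. In KO, the IL-4 rises of Ccdc86 and Mrpl16 were larger than that of Ms4a6c (0.44). Between KO and WT in M0, Ccdc86 was lower (-0.35, edgeR adjusted p = 0.00422). The IL-4 response of Ccdc86 in KO exceeded that in WT by 0.33, which edgeR did not call (adjusted p = 0.0518). With the library number as a block it was called (edgeR adjusted p = 0.0314), as was that of Ms4a6c. Gm8369, between Ms4a6c and Ms4a6b, had at most 2 counts in a library.

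Patterns over the 12 libraries were compared as a description, in which the libraries share treatment, genotype and mouse. Over the 9746 genes that averaged 5 CPM or more, Ms4a6d was most like Gask1b, Insig2 and Ttyh2 (Pearson r of log2 CPM from 0.9977 to 0.9981), of which Insig2 encodes a regulator of sterol synthesis. Ms4a6b was most like Tpst2, Pla2g7 and Tpi1 (0.944 to 0.946), which encode a protein tyrosine sulfotransferase, a phospholipase that inactivates platelet-activating factor, and a glycolytic enzyme. Ms4a6c was most like Tmem203, Sdcbp and Hagh (0.906 to 0.931), and Ms4a7 like Ahsa1, the macrophage marker Cd68 and Rtn4ip1 (0.902 to 0.904). Within the family, r was -0.71 between Ms4a6b and Ms4a6d, 0.12 between Ms4a6b and Ms4a6c, 0.53 between Ms4a6c and Ms4a6d, and between -0.16 and 0.24 for Ms4a7 with the Ms4a6 genes.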

How the data were processed

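BMM RNA was enriched for poly(A), sequenced as single reads of 75 nt and processed by the authors with FastQC 0.11.2 and the Grape-nf pipeline on GRCm38. For each library they deposited expected counts, which divide reads shared between genes, 2 versions of TPM (the maximum-likelihood value, used here, and the posterior mean), transcript lengths and a posterior SD. Their 4 DESeq2 tables (DESeq2 1.40.2; mean counts, fold changes, p-values) served for gene symbols only. The annotation release behind the counts was not given in the sources used here.

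Groups came from the labels. Expected counts were rounded, filtered with filterByExpr, and tested with edgeR 4.0.16 (R 4.3.3; TMM, quasi-likelihood F test, 1 coefficient per group, 12 libraries, biological coefficient of variation 8.08%). Each p was adjusted over all genes by the Benjamini-Hochberg method. SE was derived from the F statistic. With 3 against 3 libraries an exact permutation test cannot go below p = 0.1. Deviations from group means correlated by 0.103 to 0.364 between M0 and M2 libraries of the same number, so these pair, and by -0.068 to 0.0403 between WT and KO, which do not. Nothing says that the 3 mice of a group came from different litters.

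Alternatives were DESeq2 1.42.0, limma 3.58.1 on log2(TPM + 1) and log2(TPM + 0.1), RLE factors, other filters, only the libraries compared, a replicate block, thinning, summing paralogs, posterior mean TPM and leaving out each library. The tests were tried on simulated data. Python 3.11.15, numpy 2.4.6, pandas 2.3.3, Biopython 1.88 and matplotlib 3.10.9 were used. The genes, the lists of relatives, partners and markers, and the naming rule (all members, Igf2bp2, Lyz2 and the 3 genes most similar to each expressed member) were chosen with earlier results of these data known. Some genes of these lists are not reported here.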

Additional observations from a re-analysis of the deposited data

How the results depend on the processing

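Among the Ms4a genes, the number called between KO and WT fell from 3 to 1 in M0 and from 3 to 1 in M2 with limma on either TPM scale. For the difference between the IL-4 responses it rose from 0 to 1, Ms4a6c, with DESeq2 and with the replicate block. Leaving out each library in turn gave 0 to 3 in M0, 1 in M2 in every case, 2 to 3 for IL-4 in WT, 3 to 4 for IL-4 in KO and 0 to 1 for the difference. The 3 for IL-4 in WT arose only without WT M0 library 3 and includes Ms4a8a. No read of Ms4a8a is then left in WT M0, and this call is no free test. When the reads of the 3 Ms4a6 genes were summed, the value that stands for Ms4a6b turned from a fall to a rise of 1.30 in WT and 1.32 in KO, because Ms4a6d holds most of the sum. The summed group was higher in KO by 0.25 in M0 (edgeR adjusted p = 0.00757) and 0.26 in M2 (edgeR adjusted p = 0.0182). Ms4a6d in M2 lost its call with no filter on low counts (edgeR adjusted p = 0.0544), with only the libraries compared (0.112) and on thinned counts (0.0502), and Ms4a6b in M0 with only the libraries compared (0.0696). The cause was not tested. Without Ms4a8a, an alternative chosen after seeing the data, the median of the Ms4a genes moved by over 1.5 times in M2, for IL-4 in KO and, from 0.06 to 0.14, in the contrast of both IL-4 responses. The replicate block changed no other call of the Ms4a genes than those given for Ms4a6c, Ms4a7 and Ms4a8a.

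Over all genes, 1256 were called in M0 and 752 or 700 with limma on log2(TPM + 1) or log2(TPM + 0.1). In M2, 344 became 713 with DESeq2, 165 with only the libraries compared, and 70 or 57 with limma, and 25 to 298 without 1 library. For the difference between the responses, 416 became 816 with DESeq2, 1003 with the replicate block and 113 with limma, and 183 to 643 without 1 library. In M0 the range without 1 library was 461 to 1461. For IL-4 it was 5606 to 6182 in WT (6428 with all libraries) and 6034 to 6367 in KO (6784). At these depths Ms4a4b, Ms4a4c and Ms4a8a rest on at most 45.0 counts a library, which limits what can be seen of them.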
